A study of Mus musculus with 4 samples.

Results

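Killer lectin receptors are C-type lectin-like membrane proteins that are best known from natural killer (NK) cells. Their genes were taken from the mm9 annotation GENCODE M1 as the protein-coding genes with symbols Klra, Klrb, Klrc, Klrd, Klre, Klrg, Klri or Klrk followed by a digit, which gave 27 of 22367 protein-coding genes, all on chromosome 6. Runx3 binding to them was read from ChIP-seq of CD11chiMHCII+CD4+ conventional dendritic cells (DC), sorted by FACS from mouse spleens, with approximately 15 mice pooled. Both Runx3 immunoprecipitates (Runx3 IP) came from C57BL/6 cells and were made with a home-made polyclonal anti-Runx3 antibody. The 2 input controls were fragmented whole cell extract, of which input 1 is labelled C57BL/6 and input 2 C57BL/7, and the ages of the mice are not given. A single list of 15121 peaks was deposited for the 4 samples together, so no value below has a spread between replicates and no difference could be tested. A peak was counted for a gene when its centre lay in the gene body or within 10 kb of a transcription start site (TSS) of the gene, and 8 peaks met this rule. Whether a peak came from most of the sorted cells or from a few of them cannot be told apart in such data.

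The receptors lie mostly in the natural killer gene complex, a cluster of lectin-like genes that also holds Clec genes of myeloid cells. The Klra genes encode the Ly49 receptors, most of which bind classical MHC-I molecules on other cells and either block or start NK cell killing. The Klrb genes encode the NKR-P1 receptors, whose known ligands are the products of neighbouring Clec2 genes. Klrd1 encodes CD94, which pairs with the products of Klrc genes, the NKG2 receptors for Qa-1, and Klrk1 encodes NKG2D, which binds stress-induced ligands. Runx3 is a Runt domain factor of T cells, NK cells and DC, and the hexamer TGTGGT is the core of the sequence that Runt domains bind.

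The stretches below surround the Runt hexamer nearest to the peak centre in 6 of the 8 peaks. Those at Klrb1c and Klrb1f come first because they are copies of 1 sequence, and the others are from the promoter peak and the 3 peaks of highest score. The Klrb1c stretch runs 32 bases past the end of its peak, at its 5′ side as printed, and the other stretches lie within theirs. All are mm9, written 5′ to 3′ on the strand of the gene named, and capitals mark TGTGGT or its reverse complement ACCACA.

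Upstream of Klrb1c, chr6:128746501-128746626, minus strand: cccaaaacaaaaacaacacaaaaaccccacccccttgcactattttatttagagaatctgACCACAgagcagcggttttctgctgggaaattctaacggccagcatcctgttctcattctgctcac
Upstream of Klrb1f, chr6:128987031-128987156, plus strand: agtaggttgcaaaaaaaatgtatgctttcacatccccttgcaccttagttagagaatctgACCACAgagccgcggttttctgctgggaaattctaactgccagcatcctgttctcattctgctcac
Promoter of Klrd1, up to the base before the TSS, chr6:129541722-129541799, plus strand: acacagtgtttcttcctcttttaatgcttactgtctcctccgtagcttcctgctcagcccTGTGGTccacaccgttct
Intron 1 of Klri1, chr6:129663750-129663875, minus strand: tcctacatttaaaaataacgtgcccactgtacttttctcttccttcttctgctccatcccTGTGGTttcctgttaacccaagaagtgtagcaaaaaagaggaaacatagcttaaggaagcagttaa
Upstream of Klri2, chr6:129697188-129697313, minus strand: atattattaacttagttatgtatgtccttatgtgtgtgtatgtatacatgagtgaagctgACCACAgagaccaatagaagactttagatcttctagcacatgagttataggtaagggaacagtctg
Upstream of Klrg1, chr6:122241880-122242005, minus strand: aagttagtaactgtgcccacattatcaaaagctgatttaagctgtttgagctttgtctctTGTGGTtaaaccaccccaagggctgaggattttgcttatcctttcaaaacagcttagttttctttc

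Runx3 peaks were found at 7 of the 27 killer lectin receptor genes, or 25.9%. The Wilson 95% interval of this share, 13.2% to 44.7%, and those given below reflect counting error alone. By the same rule 8931 of the 22367 protein-coding genes, or 39.9%, had a peak. The bound genes were Klrb1b, Klrb1c, Klrb1f, Klrd1, Klri1, Klri2 and Klrg1. The 20 genes without a peak included the 11 Klra genes, and outside this subfamily 7 of 16 genes were bound, or 43.8%. The windows of the members, gene body and surroundings of each TSS, had a median length of 23.7 kb against 27.7 kb over all protein-coding genes, and together they held 10.6 peaks per Mb against 9.91. The median score of the 8 peaks was 16.4, against 12.1 over the whole list. The score is the number that MACS2 wrote for each peak, and its unit is not stated. Of the 8 peaks 1 lay within 1 kb of a TSS, 5 lay more than 5 kb upstream of the gene and 2 lay in an intron. How all peaks divide among these places was not computed, so these counts are not read as particular to the members.

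**Figure D1:**
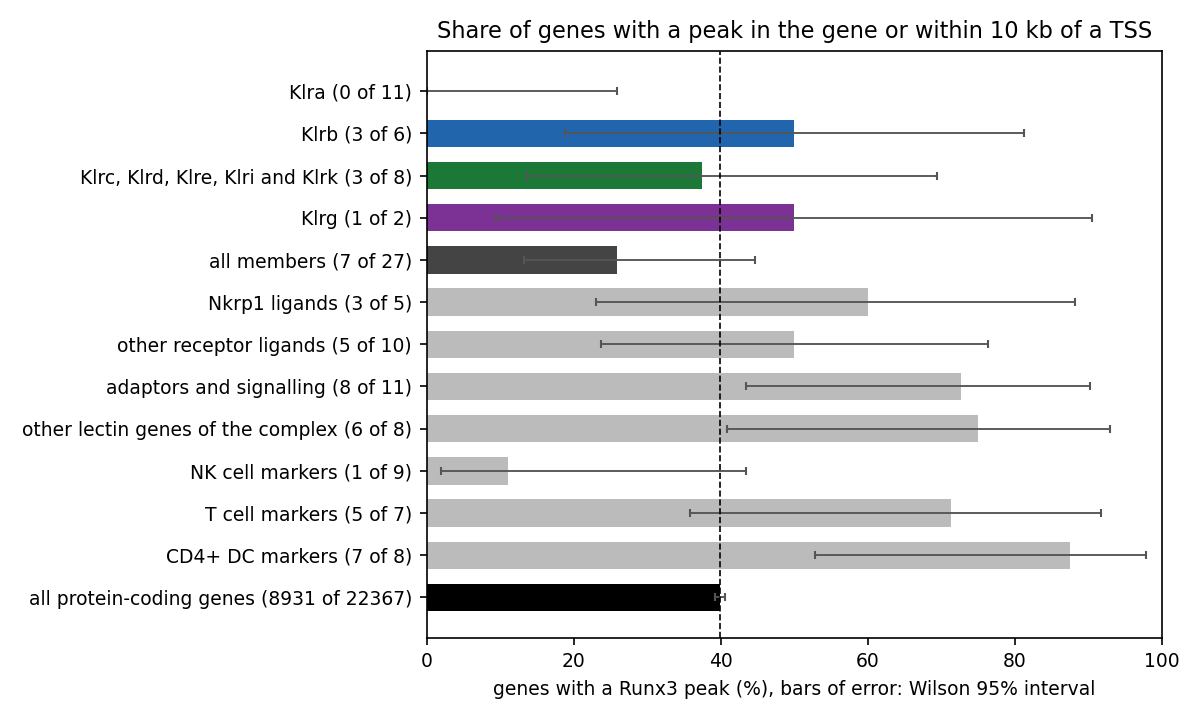
Share of genes with a Runx3 peak, in percent, for the subfamilies of killer lectin receptor genes and for the lists compared with them, with Wilson 95% intervals of counting error. The dashed line is the 39.9% of all protein-coding genes, and the Klra bar is at 0 of 11 genes.

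Among the Klrb genes 3 of 6 had a peak and 4 peaks were counted in all. Klrb1f (chromosome 6, 128995919 to 129007489, plus strand), an NKR-P1 receptor gene, had 2 of them. The stronger one, from 128986740 to 128987279, scored 17.32 and was centred 8910 bp upstream of the TSS, between genes. The other, from 128999063 to 128999337 in intron 1, scored 8.49 and was centred 3262 bp downstream of a TSS. Klrb1c (128728503 to 128739233, minus strand), which encodes the activating receptor NKR-P1C by which NK cells of C57BL/6 mice are commonly stained, had a peak from 128746342 to 128746594. It was centred 7235 bp upstream of the TSS, and its score of 3.69 lay at percentile 4.70 of the list. Klrb1b (128763724 to 128776349, minus strand), an inhibitory member, had a peak from 128784416 to 128784732 with a score of 10.54, 8225 bp upstream of the TSS. The upstream peaks of these 3 genes were between 7235 and 8910 bp away, and none of them lay over a promoter. Klrb1a, Klrb1 and Klrb1-ps1 had no peak, and the peak centres nearest to their TSS lay 138072, 37960 and 27640 bp away. Klrb1-ps1 is typed as protein-coding in the annotation although its symbol is that of a pseudogene.

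The Klrb1c peak and a part of the upstream Klrb1f peak are copies of 1 sequence. All 253 bp of the Klrb1c peak aligned to the sequence from 128987066 to 128987315 upstream of Klrb1f, with an identity of 95.3%, and both copies hold 1 hexamer, printed above. The genes face opposite ways, and so do the copies, so that both lie upstream. Their scores of 3.69 and 17.32 differed although the sequence is nearly the same. Reads were kept only where they aligned to 1 place. Of the 50-base windows that start in the Klrb1c peak 90.1% occur once in the genome without mismatch, and of those in the Klrb1f peak 94.1%. A window that differs from its copy by 1 base counts as unique here. Where the alignment allowed mismatches, the share of reads kept may be lower. The part of shared sequence in the difference of the scores was not tested. A shorter piece of 59 bp of the Klrb1c peak recurred with an identity of 93.2% and with its hexamer in a peak of score 18.13 in an intron of Clec2g. A longer piece of the Klrb1f peak, 54.6% of it, aligned with an identity of only 76.9% to a place near C3ar1 without a peak. Between 122 and 132 Mb of the chromosome, none of the other 6 peaks had a copy over 50% or more of its length.

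Of the 8 genes from Klre1 to Klri2, which include the partners of CD94, 3 were bound by 1 peak each. Klrd1 (129541800 to 129548793, plus strand) had a peak over its promoter, from 129541544 to 129541893, centred 82 bp upstream of the TSS, with a score of 15.54 at percentile 60.3. No other killer lectin receptor gene had a peak so near to a start. The TGTGGT printed above lies 66 bp from the centre of this peak, which holds 2 such hexamers. Klri1 (129647236 to 129667150, minus strand) had a peak in intron 1, from 129663538 to 129664171, 3296 bp downstream of the TSS, with a score of 41.11 at percentile 90.0. Klri2 (129679059 to 129690502, minus strand) had the highest score of all members, 90.62, at rank 225 of the list and percentile 98.5. This peak, from 129697076 to 129697738, lay between genes and 6905 bp upstream of the TSS. The proteins of Klri1 and Klri2 each pair with that of Klre1, and Klre1 itself (129527911 to 129535842, plus strand) had no peak, with the nearest centre 12422 bp from its TSS. Klrk1, the gene of NKG2D, had none either, and the nearest centre lay 30881 bp from a TSS of it, in the Klrd1 promoter. Klrc1, Klrc2 and Klrc3, which encode the NKG2 partners of CD94, had none, at distances of 34863, 53147 and 51588 bp.

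Klrg1 (122220614 to 122232900, minus strand), which encodes a cadherin receptor of mature NK and T cells, lies apart from the complex. Its peak from 122241679 to 122242706, centred 9292 bp upstream of the TSS, scored 82.06, at rank 331 and percentile 97.8, and with 1028 bp it was the widest of the 8. Klrg2 (38576660 to 38587239, minus strand) had no peak, and the nearest centre lay 73417 bp from its TSS. The 3 highest scores of the members, at Klri2, Klrg1 and Klri1, exceeded the upper quartile of the list, 23.2, and the other 5 did not.

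None of the 11 Klra genes had a peak, and the Wilson 95% interval for 0 of 11 genes reaches 25.9%. These genes are not independent, since they are neighbours and the annotated body of Klra9, which is 157 kb long, covers Klra7, Klra10 and Klra3. The nearest peak centres lay 28.0 kb from the TSS of Klra2, 127518 bp from a TSS of Klra17 and 165777 bp from a TSS of Klra5. The other 8 Klra genes were between 279565 and 628078 bp from a peak centre. Klra17 encodes Ly49Q and Klra2 encodes Ly49B, which are known from myeloid cells and plasmacytoid DC rather than from NK cells, and Klra5 encodes Ly49E. Klra2, Klra5, Klra17 and Klrk1 are named here because the study lists them among genes that change in Runx3-/- CD4+ DC. For its gene clusters the study counted Runx3 binding up to 200 kb from a TSS, not 10 kb. Within 200 kb each of these genes had a peak, as did 79.8% of all protein-coding genes. Klra4 and Klra8 encode the activating receptors Ly49D and Ly49H. Klra1, Klra3, Klra7 and Klra9 encode the inhibitory Ly49A, Ly49C, Ly49G and Ly49I. These activating and inhibitory genes had no peak within either distance.

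The Klra genes lie in a single interval without peaks, between the peak upstream of Klri2 and a peak from 131225218 to 131225556 with a score of 19.78. The interval is 1.53 Mb long, has 0 unsequenced bases and holds 16 protein-coding genes, 11 of them Klra genes. Of the 15101 intervals between neighbouring peaks on a chromosome it was the one of rank 326 by sequenced length, and 2.16% of them were at least as long. This share counts intervals and not bases. Long intervals cover more of the genome than short ones, so the share of the genome within such intervals is larger, and it was not computed. The median interval was 34.1 kb. Other stretches of the complex held more peaks per Mb. From Klrb1a to Klrb1-ps1 there were 17 peaks in 520 kb, or 32.7 per Mb, of which 4 were counted for Klrb genes. The median score of the 17 was 11.2, against 12.1 over the whole list. From Cd69 to Olr1 there were 10 peaks in 240 kb, or 41.7 per Mb. From Klre1 to Klri2 there were 3 peaks in 163 kb, or 18.5 per Mb. They include a peak from 129677275 to 129677565 with a score of 10.53 that was counted for no member. The peak upstream of Klri2 lies beyond the end of this stretch. The chromosomes held 5.91 per Mb, and the windows of all protein-coding genes 9.91.

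**Figure D2:**
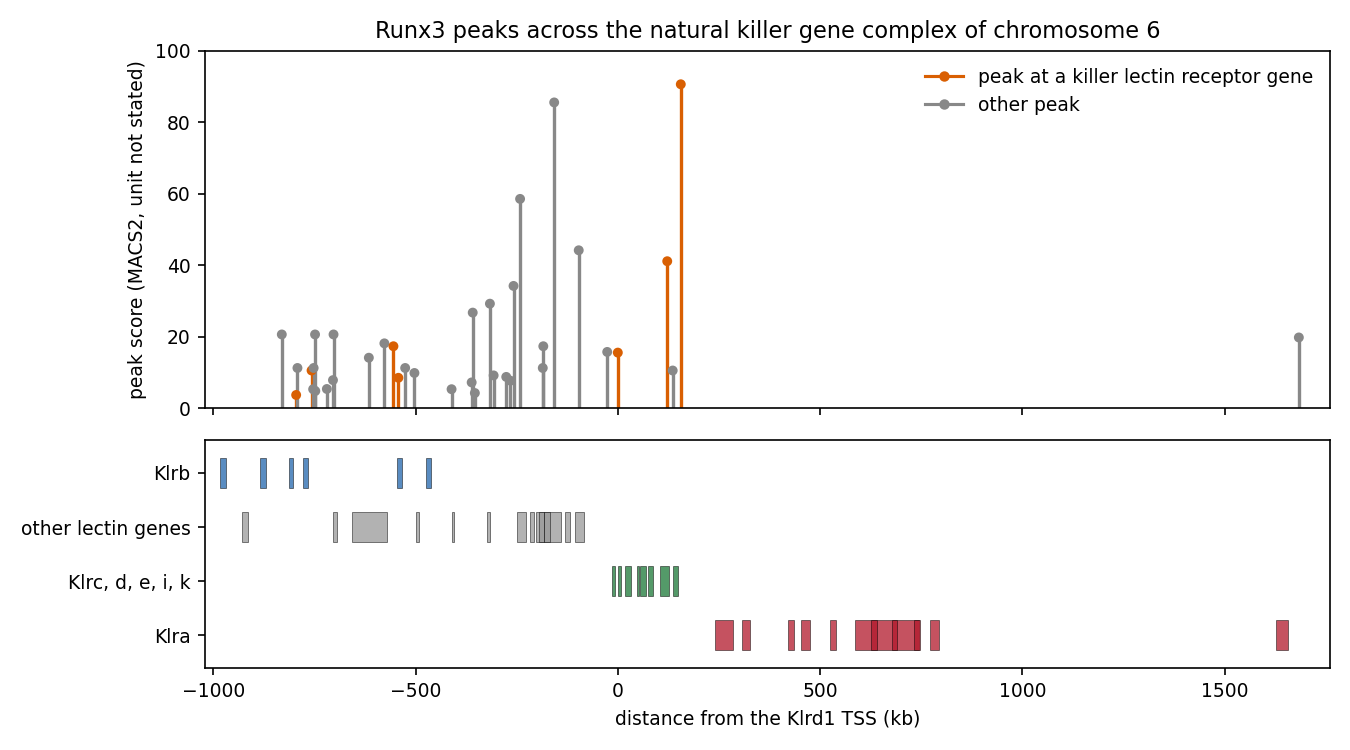
Runx3 peaks by score (upper panel, linear axis) and genes (lower panel) across the natural killer gene complex, against the distance from the Klrd1 TSS in kb. Orange peaks are those at a killer lectin receptor gene, the Klrg1 peak lies outside the map, and no peak falls between the peak of score 90.62 upstream of Klri2 and the one of score 19.78 beyond Klra2.

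The Klra genes are close copies of each other, and reads that fit several places were not aligned. The share of 50-base windows that occur once in the genome without mismatch was therefore computed for each gene. Where the alignment allowed mismatches, the share of reads kept may be lower than these values. In the windows of the Klra genes, the gene body with 10 kb around each TSS, it ran from 65.3% at Klra8 to 93.5% at Klra6, with a median of 78.6%. The median was 92.0% over the Klrb genes and 88.9% over the genes from Klre1 to Klri2. In 1 kb taken from every Mb of the chromosomes it was 88.8%, and in the interval without peaks 72.1%. Klra1 with 92.8%, Klra6 with 93.5% and Klra5 with 88.8% were at or above the value of this genome sample, and had no peak. In the 1 kb around the TSS the median of the Klra genes was 93.1%, with 59.8% at Klra8 and 100% at Klra17, and 16.9% of all protein-coding genes were at or below that median. Klrc2 and Klrc3 had the lowest shares around the TSS, 29.0% and 29.1%, and of their windows 45.7% and 59.9% were unique. The 7 bound genes were between 87.1% and 97.7%. Of all peaks, 0.185% had less than 50% unique windows. Peaks were called on uniquely aligned reads, so a low share follows at least in part from the alignment. The share of the genome below 50% was not computed. The part that unique alignment had in the missing peaks of Klra and Klrc genes was not tested.

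**Figure D3:**
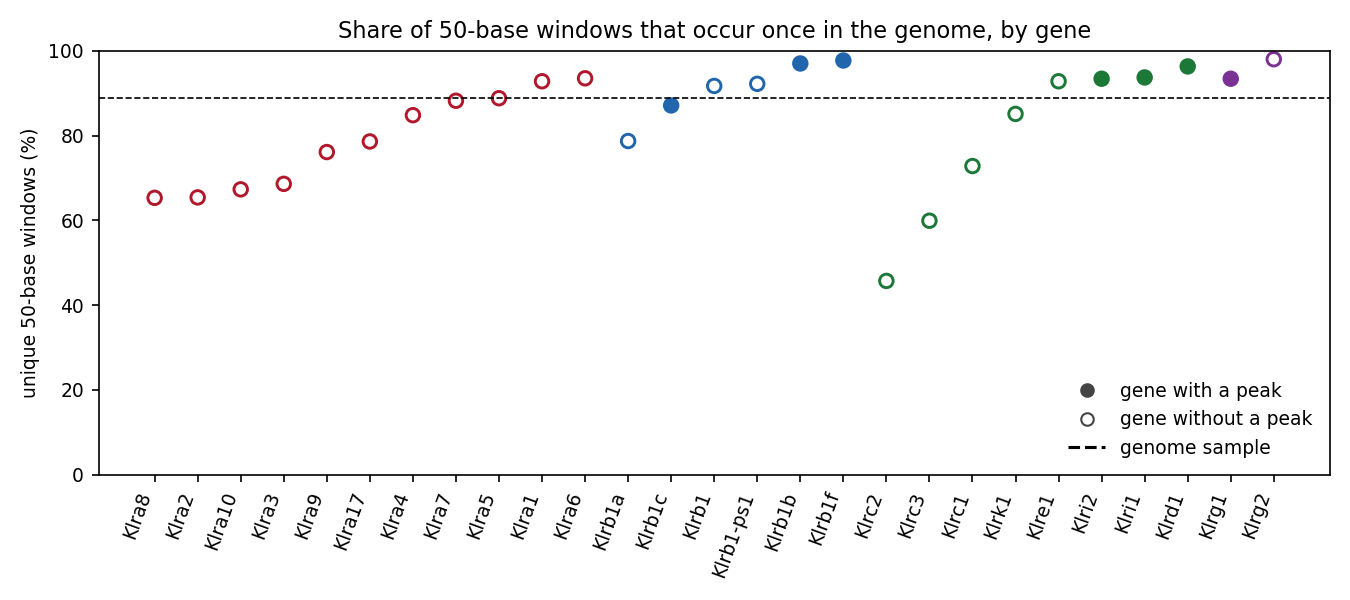
Share of 50-base windows that occur once in the genome, in percent, for each of the 27 killer lectin receptor genes, in red for Klra, blue for Klrb, green for Klrc, Klrd, Klre, Klri and Klrk, and purple for Klrg, with a dashed line at the 88.8% of a sample of the genome. Filled points, the genes with a peak, lie between 87.1% and 97.7%, and open points, the genes without one, between 45.7% and 98.0%.

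TGTGGT was present on either strand in 7 of the 8 peaks, or 87.5% (Wilson 95% interval 52.9% to 97.8%), and in 54.0% of all peaks. The interval treats the 8 peaks as independent, although the Klrb1c peak and the upstream Klrb1f peak share copies of 1 sequence with its hexamer. The exception was the intronic peak of Klrb1f, which holds no TGTGGT but a CGTGGT. Windows of equal width placed 10 kb further along the chromosome held TGTGGT in 2 of 8 cases, against 31.2% for all peaks. The hexamer lay 9 bp from the centre of the Klrb1b peak and 42 bp from that of Klri1, but 157 and 250 bp from the centres of the strong peaks of Klri2 and Klrg1. In the windows of the Klra genes TGTGGT occurred 256 times, or 0.630 times per kb, against 0.891 in those of the Klrb genes and 0.772 over the chromosomes. Over the chromosomes it occurred 1974855 times, against 15121 peaks, and most copies anywhere lie outside a peak. In promoters, taken as 250 bp upstream to 50 bp downstream of the 5′ end of the gene, TGTGGT was present for 9 of the 27 genes, or 33.3% (Wilson 95% interval 18.6% to 52.2%), against 15.3% of all protein-coding genes. They were Klrb1a, Klrb1c, Klre1, Klrd1, Klrk1, Klrc3, Klrc1, Klra5 and Klra1, and of these genes Klrd1 alone had a peak within 1 kb of its TSS. With C or T allowed at the first and the third base the same 9 promoters were counted, while the share of all protein-coding genes was 35.2%, so the direction of this difference depended on how the hexamer was written.

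**Figure D4:**
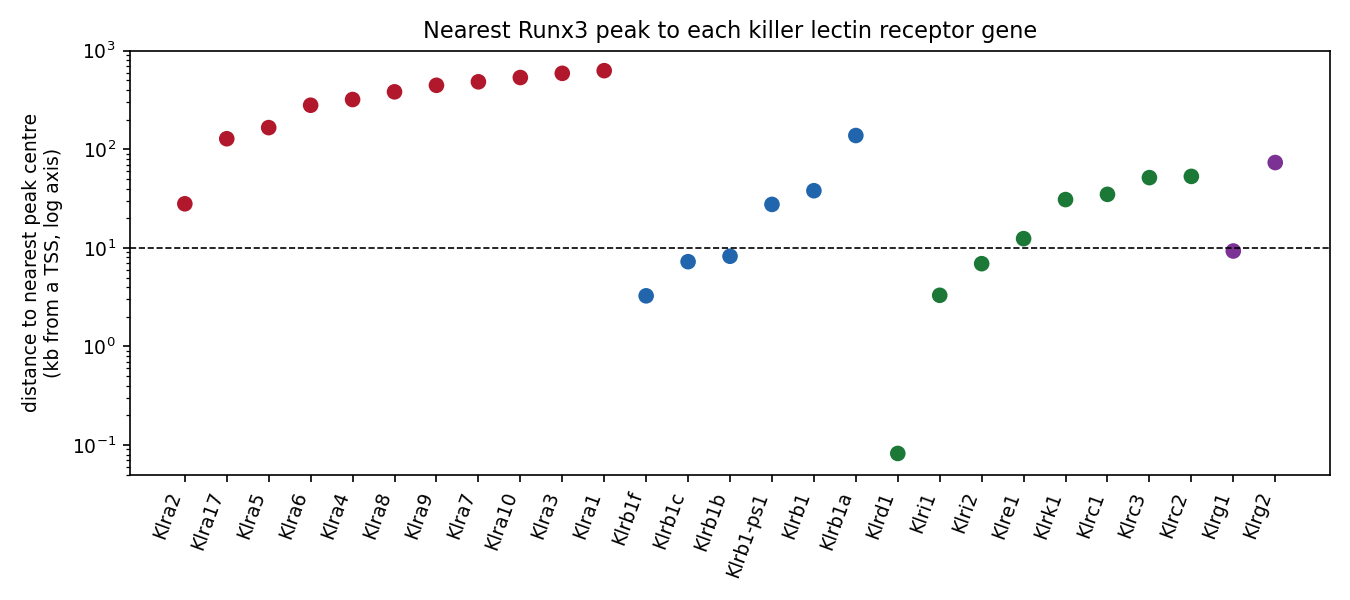
Distance in kb, on a log axis, from a TSS of each of the 27 genes to the nearest Runx3 peak centre. The dashed line is the limit of 10 kb, colours are those of the subfamilies, and the points run from 0.082 kb at Klrd1 to 628 kb at Klra1.

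The limit of 10 kb decided some of the counts. Just inside it were the peaks of Klrg1 at 9292 bp and Klrb1f at 8910 bp. Just outside were a peak at 10270 bp from the Klri1 TSS with a score of 10.53, one at 10442 bp from a Klrb1c TSS with a score of 11.24, and one at 11324 bp from the Klrg1 TSS with a score of 15.54. Klre1 would gain a peak of score 15.73 at 12422 bp, between genes.

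The ligands and partners of the receptors were taken as lists. Of the Clec2 genes, which encode ligands of NKR-P1 receptors, 3 of 5 matched genes had a peak. Clec2d, whose product binds the Klrb1b receptor, had one over its first exon, 33 bp from a TSS, with a score of 5.30. Clec2i had one 106 bp from its TSS, in an intron of the overlapping gene BC035044, with a score of 7.84, and another of score 20.62. Clec2g had 2, in introns, with scores of 14.11 and 18.13, and Clec2e and Clec2h had none. Of 10 matched ligand genes of the other receptors 5 were bound, or 50.0%, with an interval of 23.7% to 76.3% that also holds 39.9%. Among them H2-K1 and H2-D1, which encode classical MHC-I chains seen by Ly49 receptors, had peaks 91 and 123 bp from a TSS with scores of 17.32 and 18.13, and the highest score of that list was 72.74, at H2-D1. H2-T23, the gene of Qa-1, had none, nor had Cdh2, H60c, or Raet1c and Raet1d, genes of NKG2D ligands. The windows of Raet1c and Raet1d were 44.3% and 44.5% unique, and those of H2-T23, H60c and Cdh2 73.7%, 94.3% and 96.9%. The bound ligand genes also included Cdh1 and Cdh4, both only through peaks in introns. Those of Cdh1 lay 29791 and 39137 bp from a TSS, and that of Cdh4 127633 bp. H60b was bound through a peak 9975 bp from its TSS, in an exon of E030030I06Rik, and its window was 42.8% unique.

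Of 11 genes of adaptors and signalling proteins 8 had a peak, or 72.7% (Wilson 95% interval 43.4% to 90.3%), against 39.9% of all protein-coding genes. The median window of this list, 36.9 kb, was longer than the 27.7 kb of all protein-coding genes. Tyrobp (DAP12) and Hcst (DAP10), the adaptors of activating Ly49 receptors and of NKG2D, are neighbours and shared the same 4 peaks. One of these was centred 52 bp from the Tyrobp TSS with a score of 10.53, and another 245 bp from the Hcst TSS with a score of 4.79. Fcer1g had a peak of score 21.46 at 109 bp, and Ptpn6, which encodes the phosphatase SHP-1 recruited by inhibitory receptors, one of score 7.71 at 4 bp. Inpp5d, which encodes the phosphatase SHIP-1, had one of score 28.65 at 115 bp, Vav1 one of score 11.24 at 41 bp, and Sh2d1b1 one of score 9.16 in an intron. Syk, listed as Sykb, had 6 peaks with scores between 5.36 and 19.78. Ptpn11, Zap70 and Sh2d1b2 had none. Of the 8 other lectin genes of the complex 6 were bound, Cd69, Clec12a, Clec1a, Clec1b, Clec9a and Olr1, with scores up to 85.54 in an intron of Clec1a. Clec1b and Clec9a had only 2 peaks, of scores 11.24 and 17.32, which they shared and which also lie in the window of Clec1a. Clec12b and Clec7a, the gene of Dectin-1, had none.

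The label of the sorted cells was compared with peaks at marker genes, which show binding and not expression. The shares below stand beside 39.9% of all protein-coding genes, and the median windows were 34.5 kb for the CD4+ DC markers, 20.6 kb for the NK cell markers, 24.6 kb for the T cell markers and 27.7 kb over all protein-coding genes. Of the CD4+ DC markers 7 of 8 had a peak, namely Cd4, Flt3, H2-Ab1, Irf4, Itgax, Sirpa and Zbtb46, and Esam had none. Of the NK cell markers 1 of 9 had a peak, Cd244, with 3 peaks of scores up to 20.62. No peak was called at Ncr1, the gene of NKp46, nor at Eomes, Tbx21, Itga2, Il2rb, Gzma, Gzmb or Prf1. Of the T cell markers 5 of 7 had a peak, Cd3d, Cd3g, Cd5, Cd8b1 and Lck, with a highest score of 99.56 in a peak that Cd3d and Cd3g shared, and Cd3e and Cd8a had none. The median score was 9.72 over the 22 peaks of the CD4+ DC markers. It was 17.3 over the 3 of the NK cell markers and 21.9 over the 5 of the T cell markers, against 12.1 over the whole list. The part of other cells in the peaks at killer lectin receptor genes was not tested.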

How the data were processed

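Splenic CD4+ DC were profiled by Runx3 ChIP-seq in 2 Runx3 IP and 2 input samples. The authors aligned 50 bp reads uniquely to mm9 with bowtie, after CASAVA 1.8 per the labels, and called peaks with MACS2 on the pooled samples. Versions of bowtie and MACS2, the mismatches allowed, the threshold and the handling of duplicates are not given in the sources used here. The deposited score of each peak has no stated unit and was used only to rank peaks within the list. Depth per sample was not analysed here, so a missing peak means only that none was called.

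Positions are 1-based on mm9. Genes were those of GENCODE M1 outside chromosome M, and bases were read from NCBIM37, which is mm9 under another name. Peaks were placed by their centre. Hexamers were searched on both strands. A 50-base window counted as unique when it occurred once, without mismatch, on both strands of chromosomes 1 to 19, X, Y and M. Copies of peaks were searched with blastn 2.17.0. Of the listed genes, those absent from the annotation were looked up by older symbols, and Syk matched as Sykb.

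The members and the gene lists were chosen with earlier results of these data known. Named genes were all members, those without a peak by the distance to the nearest one, the bound genes of the lists, and members that the study lists as changed without Runx3. No test was run, since 1 list without replicates allows none. Scripts were tested on simulated data. Python 3.11.15, numpy 2.4.6, pandas 2.3.3, scipy 1.17.1, numba 0.67.0 and matplotlib 3.10.9 were used.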

Additional observations from a re-analysis of the deposited data

How the results depend on the processing

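The 7 bound genes were the same when any base of a peak was placed, when peaks closer than 300 bp were joined and when the gene body was not used. The basal plus extension rule of GREAT gives each gene a domain of 5 kb upstream and 1 kb downstream of its start. The domain is extended by up to 1000 kb until it meets the next one. Here the domains were built for every annotated gene, noncoding ones included, so they may differ from those of the study, which also used GREAT. They gave 9 bound genes with 16 peaks, and a limit of 200 kb from a TSS gave 19 with 47 peaks. With scores at or above the list median 5 genes and 5 peaks remained, and with scores at or above the upper quartile 3 genes and 3 peaks. Over all protein-coding genes the bound share was 36.7% without the gene body, 79.8% within 200 kb, 43.3% by the GREAT rule, 25.0% at the score median and 13.9% at the upper quartile. In the same order the share of the members was 25.9%, 70.4%, 33.3%, 18.5% and 11.1%. It was below that of all protein-coding genes under each of these rules, but the rules reuse the same peaks and genes. The interval of the main share, 13.2% to 44.7%, also holds the 39.9% of all protein-coding genes. Outside the Klra genes the main share was 43.8%. Of the 11 Klra genes 3 were bound within 200 kb, Klra2, Klra5 and Klra17, and 0 under the other rules. TGTGGT was in 100% of the 5 peaks at or above the score median, against 60.1% of all such peaks, and in 100% of the 3 at or above the upper quartile, against 65.0%. With C or T allowed at bases 1 and 3 the shares were 100% and 76.6%, and in the windows 10 kb further along they were 25.0% and 31.2%. In the central 200 bp they were 62.5% and 41.8%. Over whole peaks TGTGGT was in 62.5% of those in GREAT domains and in 55.3% of the 47 within 200 kb, against 54.0% of all peaks. The median score was between 13.4 and 16.4 under the rules for placing peaks. No paired analysis was possible because the deposited list holds 1 value per peak for the pooled samples, and for the same reason no replicate could be left out.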

Other observations

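Within 60 kb of the Klrg1 TSS there were 4 peaks, all on the upstream side. After the peak at 9292 bp, which scored 82.06, came one at 11324 bp with a score of 15.54 and 2 copies of TGTGGT. The next, at 25992 bp, scored 72.15, lay 125 bp from a TSS of M6pr, the gene of a mannose 6-phosphate receptor, and holds 0 copies of TGTGGT. The last, at 50491 bp, scored 16.53 and lay in an exon of Phc1, a Polycomb gene. Their scores lay at percentiles 97.8, 60.3, 97.1 and 63.7 of the list, in this order.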
